A study of Homo sapiens with 10 samples.

Results

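The collagen genes were described here across 5 proliferating and 5 senescent arrays of IMR90, a fibroblast line from human fetal lung. Members were all genes whose symbol reads COL, a number, A and a number, read from probe sets that the platform annotation assigns to a single symbol. This gave 43 collagen genes on 112 probe sets, out of 19775 genes named in this way. For a test, a gene needed a probe set whose signal exceeded the 40th percentile of the array in 5 or more of the 10 arrays, a condition met by 34 collagens and by 12909 genes in all. COL17A1 was not analysed here. Proliferating IMR90 cells were taken at 28 population doublings. Senescent IMR90 cells were taken at 90 population doublings, after passaging until growth stopped and 2 further weeks in the dish. Both groups were the same single line, grown in 3% oxygen and 10% serum, and carried no named allele, transgene or agent, so growth state and passage number differ together. Senescence was judged by the submitters from p16, cyclins and beta-galactosidase staining, and no label states that replicate arrays stem from separate cultures. All p-values therefore refer to the scatter of these samples, and that scatter may be technical. Each value is a deposited log2 signal, in which a difference of 1 is 2-fold.

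Collagens are secreted or membrane-bound proteins in which 3 alpha chains wind into a triple helix, and they form the bulk of connective tissue. Fibrillar collagens build the tension-bearing fibrils of lung interstitium, type IV collagen builds the network of basement membranes, and fibril-associated collagens (FACIT) sit on fibril surfaces. Beaded-filament, anchoring, network-forming, multiplexin and transmembrane collagens link cells, basement membranes and fibrils to each other.

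Signal was read in 2 tiers. Clear signal meant a value over the 60th percentile of the array, 4.64 to 4.77 on the log2 scale, for all 5 arrays of at least 1 group, and 24 collagens had it. The other 19 were low in both groups. Fibroblast markers were present, with 11 of 12 clear in both groups and a mean log2 signal over the list of 10.03 to 10.29 on proliferating and 10.29 to 10.52 on senescent arrays. They were not steady, since 6 of the 12 rose and 3 fell, with log2 differences from -2.17 to 2.78. None of 7 leukocyte markers was clear in either group (list mean 2.40 to 2.43 and 2.41 to 2.50), and PTPRC and CD3E stayed in the low range. Of 8 endothelial markers only TEK was clear (3.27 to 3.35 and 3.39 to 3.45), with PECAM1 and VWF low. Epithelial markers were clear for 5 of 9 genes in proliferating and 3 of 9 in senescent cells (4.83 to 4.90 and 4.38 to 4.56), where EPCAM fell by 2.31, KRT19 by 1.26 and KRT18 by 0.46, SFTPC and SFTPB rose by 0.34 and 0.13, and CDH1 was low. Smooth muscle markers were clear for 5 and 6 of 7 (6.63 to 6.91 and 6.32 to 6.49), where MYOCD and MYH11 fell by 2.77 and 0.72 and LMOD1 and ACTA2 rose by 0.73 and 0.31. Chondrocyte markers were clear for 2 and 3 of 8 (4.12 to 4.20 and 4.75 to 4.88), where HAPLN1 rose by 6.26, MATN3 fell by 1.24, SOX9 differed by -0.03 without a call and ACAN, COMP and MATN1 were low. The part of these markers in the collagen differences was not tested. In whole cultures, fewer cells of a kind and less RNA per cell cannot be told apart.

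One array stood apart for collagens. Proliferating 5 was the lowest array of its group for 20 of the 24 collagens with clear signal, against 20.9% of all genes with clear signal, and lay a median of 0.43 on the log2 scale below the mean of the other proliferating arrays. The same median over all genes with clear signal was 0.04 above the others. Senescent 5 was lowest of its group for 14 of the 24, against 42.2% of all genes, with a median of 0.14 below. The spread was larger among proliferating arrays for 18 of the 24 collagens (75.0%, and 55.0% of all genes with clear signal), with a median SD of 0.23 in proliferating and 0.11 in senescent cells. Without proliferating 5 and senescent 5, 10 collagens rose and 14 fell, where 59.4% of all tested genes were called. The 3' to 5' signal difference of the ACTB control, a sign of RNA integrity, was 2.07 ± 0.14 in proliferating and 2.32 ± 0.10 in senescent cells (SD, n = 5 each, exact permutation p = 0.00794, two-sided). For the GAPDH control it was -0.03 ± 0.18 in proliferating and 0.12 ± 0.09 in senescent cells (SD, n = 5 each, exact permutation p = 0.135, two-sided).

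**Figure D1:**
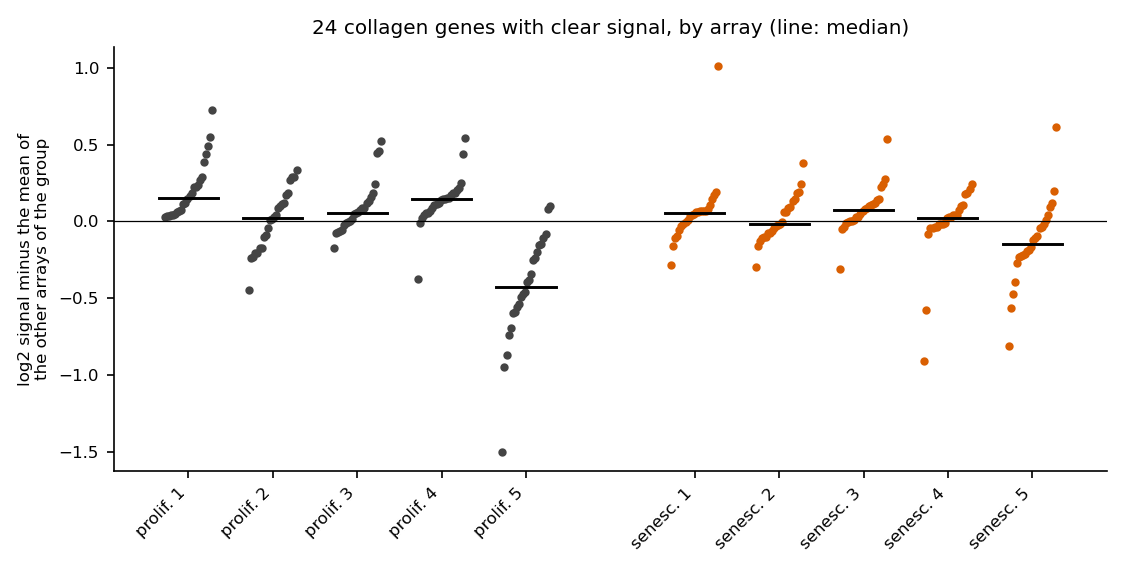
Each point is a collagen gene with clear signal (24 genes), plotted as its log2 signal on an array minus the mean of the other 4 arrays of the same group, for proliferating arrays 1 to 5 and senescent arrays 1 to 5, with a line at the median. Proliferating 5 has a median of -0.43 and its lowest point, COL15A1, at -1.50, while the medians of the other proliferating arrays lie at or just above 0.

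Collagen genes changed in both directions, with the 4 type IV chains of clear signal higher and both multiplexins, 3 of 5 tested fibril-associated collagens and COL5A3 lower in senescent cells. Of 34 tested collagens, 10 rose, 13 fell and 11 did not pass limma's adjusted threshold of 0.05, where 61.3% of all tested genes were called (31.0% higher and 30.3% lower). The collagens' own shares were 29.4% higher and 38.2% lower. With the ACTB 3' minus 5' difference as a covariate 5 collagens rose and 12 fell, where 49.4% of all tested genes were called. This ACTB difference was higher on every senescent array (2.24 to 2.47) than on every proliferating array (1.85 to 2.19), so covariate and group cannot be fully told apart. With arrays centred on housekeeping genes 7 collagens rose and 14 fell, where 59.9% of all tested genes were called. The median log2 difference (senescent minus proliferating) was 0.02 over the tested collagens and 0.04 over all tested genes. Among the 24 with clear signal, 7 rose, 13 fell and 4 were not called, with a median of -0.32 (all genes with clear signal 36.5% higher, 36.6% lower, median -0.00). COL5A3, COL9A3 and COL14A1 entered that set through the proliferating arrays alone. Of the 21 clear in both groups, 7 rose, 10 fell and 4 were not called, with a median of -0.12, beside 35.7% higher and 35.8% lower of 9059 such genes. Senescent and proliferating values did not overlap for 20 of the 34 tested collagens (51.8% of all tested genes) and for 16 of the 24 (61.6% of all genes with clear signal). Of the 24, 7 were called with a difference of at least 2-fold, 1 higher and 6 lower, beside 23.8% of all genes with clear signal in either direction. Of the 21 clear in both groups, 1 (COL4A5) was called at least 2-fold higher and 3 (COL7A1, COL15A1 and COL18A1) at least 2-fold lower, beside 9.58% and 9.74% of all genes clear in both groups. Over all tested genes 10.0% were called at least 2-fold higher and 10.2% at least 2-fold lower.

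**Figure D2:**
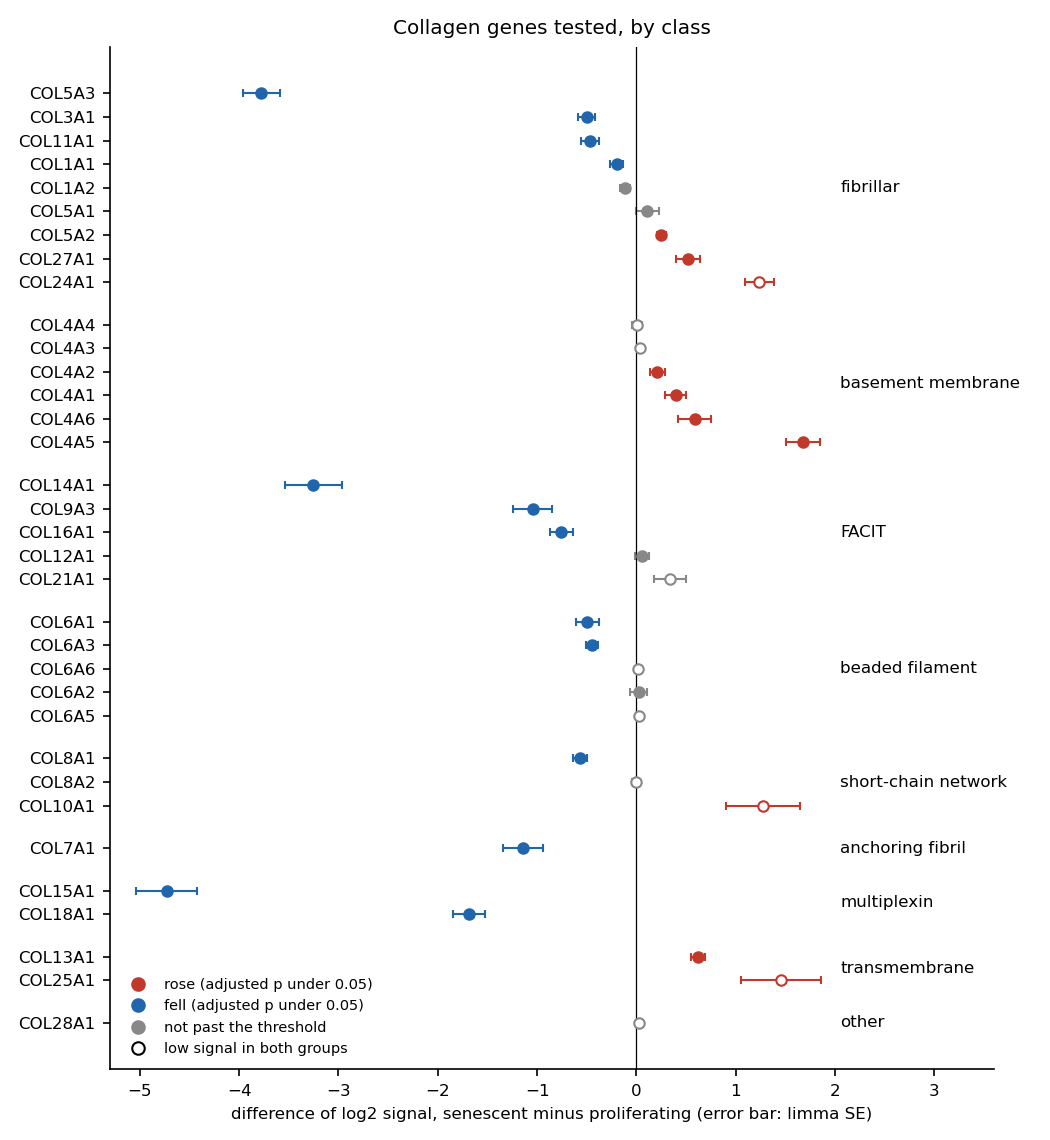
Difference of log2 signal, senescent minus proliferating, for the 34 tested collagens by class, with limma's standard error as bars. Red rose, blue fell, grey did not pass, and open symbols are low in both groups. COL15A1, COL5A3 and COL14A1 lie furthest left at -4.73, -3.78 and -3.25, and the type IV chains with clear signal lie to the right of 0.

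All 4 basement membrane chains with clear signal rose. COL4A5 had the largest rise of the 24 collagens with clear signal, and COL4A1, COL4A2 and COL4A6 rose by less, giving 4 of 4 with a median difference of 0.49. Of all genes with clear signal 36.5% rose. The count of 4 depended on the setting, with 1 called under the ACTB covariate and 2 under housekeeping centring. COL4A1 and COL4A2 encode the chains of the common type IV protomer, while COL4A5 and COL4A6 encode chains of tissue-restricted protomers. Type IV genes lie in head-to-head pairs, in which both genes are read outward from a shared stretch. In the RefSeq promoter table (GRCh38.p14), which held an entry for 31 of the 43 collagens, 126 bases separated the starts of COL4A1 and COL4A2. The starts of COL4A4 and COL4A3 were 418 bases apart, and COL4A6 had starts at 379 and 1415 bases from that of COL4A5. The stretch shared by COL4A1 and COL4A2, which changed in the same direction, and the 250 bases before the COL4A5 start are shown 5′ to 3′ on the plus strand, at chr13:110307158-110307283 and chrX:108439588-108439837. Capitals mark a GC box (GGGCGG) or a CCAAT box (CCAAT) on either strand, where ATTGG is a CCAAT box on the minus strand.
COL4A1-COL4A2: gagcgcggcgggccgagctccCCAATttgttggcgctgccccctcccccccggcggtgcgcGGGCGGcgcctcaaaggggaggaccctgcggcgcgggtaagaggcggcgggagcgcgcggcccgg
COL4A5: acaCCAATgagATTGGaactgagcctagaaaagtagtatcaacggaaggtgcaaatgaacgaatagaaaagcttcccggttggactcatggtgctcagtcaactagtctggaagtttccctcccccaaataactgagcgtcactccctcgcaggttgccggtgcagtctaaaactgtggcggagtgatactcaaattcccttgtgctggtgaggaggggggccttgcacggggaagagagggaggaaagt
The first stretch had 80.2% G and C with 1 match to each box, and the second 51.2% with 2 CCAAT boxes and no GC box. As the first spans 126 bases, its values are not directly comparable with the following shares, taken over 250 bases. Over 35116 promoters in the table, the median was 58% G and C, 42.6% held a GC box, 32% a CCAAT box and 10.7% a TATA box (TATAAA) in the 250 bases before the start, and over 43 collagen starts the shares were 55.8%, 25.6% and 16.3%. These matches describe letters and name no bound factor.

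COL4A5 had log2 values of 7.64, 7.39, 7.95, 7.73 and 6.93 on proliferating arrays 1 to 5 and 9.25, 9.12, 9.42, 9.17 and 9.05 on senescent arrays 1 to 5. All 5 senescent arrays lay above all 5 proliferating arrays. Its level rose 3.19-fold, or by 1.68 on the log2 scale (SE 0.17, limma's adjusted p = 9.6e-06), the 540th highest difference of 12909 genes, and a further probe set rose by 1.23. COL4A6, its neighbour, had values of 8.04, 7.69, 8.23, 8.03 and 7.31 in proliferating and 8.53, 8.59, 8.45, 8.52 and 8.13 in senescent cells. The groups overlapped through senescent 5, which lay below proliferating 3. COL4A6 rose by 0.58 (SE 0.17, limma's adjusted p = 0.011), and the change of COL4A5 exceeded it by 1.09 (SE 0.09) on the log2 scale. Such differences between the changes of 2 chains were taken for 8 pairs chosen after their values were seen, and are given as descriptions with no test. A pair was compared only by its changes, since levels of different probe sets are not on a common scale.

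COL4A1 had values of 12.87, 12.80, 12.90, 12.91 and 12.39 in proliferating and 13.28, 13.24, 13.23, 13.10 and 12.98 in senescent cells. Every senescent value was above every proliferating value. Its difference was 0.39 (SE 0.11, limma's adjusted p = 0.0079), or 1.31-fold, and its second probe set rose by 0.53. COL4A2 had values of 10.97, 10.92, 10.82, 10.87 and 10.55 in proliferating and 11.07, 10.96, 11.13, 11.02 and 11.01 in senescent cells. Senescent 2 lay just below proliferating 1, so the groups overlapped. COL4A2 rose by 0.21 (SE 0.08, limma's adjusted p = 0.036), while its second probe set differed by -0.02, and the pair's changes differed by 0.18 (SE 0.07). COL4A3 and COL4A4, chains of the glomerular and alveolar basement membrane, were low in both groups and differed by 0.04 and 0.00, neither past the threshold. The smaller rises depended on the setting. With the ACTB 3' minus 5' difference as a covariate, COL4A5 rose by 1.33 (limma's adjusted p = 9.3e-04), whereas COL4A1 (0.27, adjusted p = 0.201), COL4A2 (0.16, adjusted p = 0.320) and COL4A6 (0.32, adjusted p = 0.316) were not called, which left 1 of 4, and with housekeeping centring 2 of 4 were called, without COL4A1 (0.29) and COL4A2 (0.11). COL4A2 also lost its call in the omission of proliferating 3 or 4 or senescent 1, 3, 4 or 5 (adjusted p = 0.051 to 0.080), and COL4A6 rose by 0.37 when its probe sets were averaged.

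Both multiplexins, COL15A1 and COL18A1, fell, with a median difference of -3.21. They encode collagens with interrupted helices that bridge basement membranes to the underlying matrix and release anti-angiogenic fragments from their C-terminal ends, endostatin in the case of COL18A1. The RefSeq sequences before the starts of COL15A1 and COL5A3, the pair of collagens that fell furthest, are shown 5′ to 3′ in the direction of transcription, at chr9:98943657-98943906 on the plus strand and chr19:10010505-10010754 on the minus strand (GRCh38.p14). Capitals again mark GGGCGG and CCAAT.
COL15A1: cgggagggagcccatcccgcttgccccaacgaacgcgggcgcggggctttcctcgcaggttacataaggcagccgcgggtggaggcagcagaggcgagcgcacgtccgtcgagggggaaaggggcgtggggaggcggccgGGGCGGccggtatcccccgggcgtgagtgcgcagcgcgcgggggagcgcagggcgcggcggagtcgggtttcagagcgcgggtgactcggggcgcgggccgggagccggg
COL5A3: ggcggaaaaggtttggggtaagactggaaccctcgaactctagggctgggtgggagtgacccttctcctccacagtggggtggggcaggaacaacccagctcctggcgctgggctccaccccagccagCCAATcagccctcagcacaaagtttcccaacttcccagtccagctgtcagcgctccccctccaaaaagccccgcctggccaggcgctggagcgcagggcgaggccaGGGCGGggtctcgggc
The COL15A1 stretch had 76.8% G and C and 1 GC box, and the COL5A3 stretch 66% with 1 GC box and 1 CCAAT box. No TATA box was found in any of the 4 stretches.

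COL15A1 had log2 values of 10.56, 10.59, 10.73, 10.81 and 9.17 in proliferating and 5.80, 5.75, 5.84, 5.84 and 4.99 in senescent cells. The groups did not overlap, and array 5 was the lowest of each group. Its mean went from 10.37 ± 0.68 to 5.64 ± 0.36 (SD, n = 5 each), a 26.6-fold fall to 3.76% of the proliferating level (log2 difference -4.73, SE 0.31, limma's adjusted p = 3.8e-07), the 88th lowest difference of 12909 genes. Without proliferating 5 the difference was -5.03. COL18A1 had values of 10.42, 10.47, 10.19, 10.36 and 9.76 in proliferating and 8.61, 8.76, 8.60, 8.73 and 8.11 in senescent cells, again without overlap and with array 5 lowest in both groups. It fell 3.21-fold (log2 difference -1.68, SE 0.16, limma's adjusted p = 6.1e-06), but its other tested probe set differed by only -0.29 and was not called, and the mean of its probe sets fell by 0.99. The change of COL15A1 minus that of COL18A1 was -3.05 (SE 0.21) on the log2 scale.

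**Figure D3:**
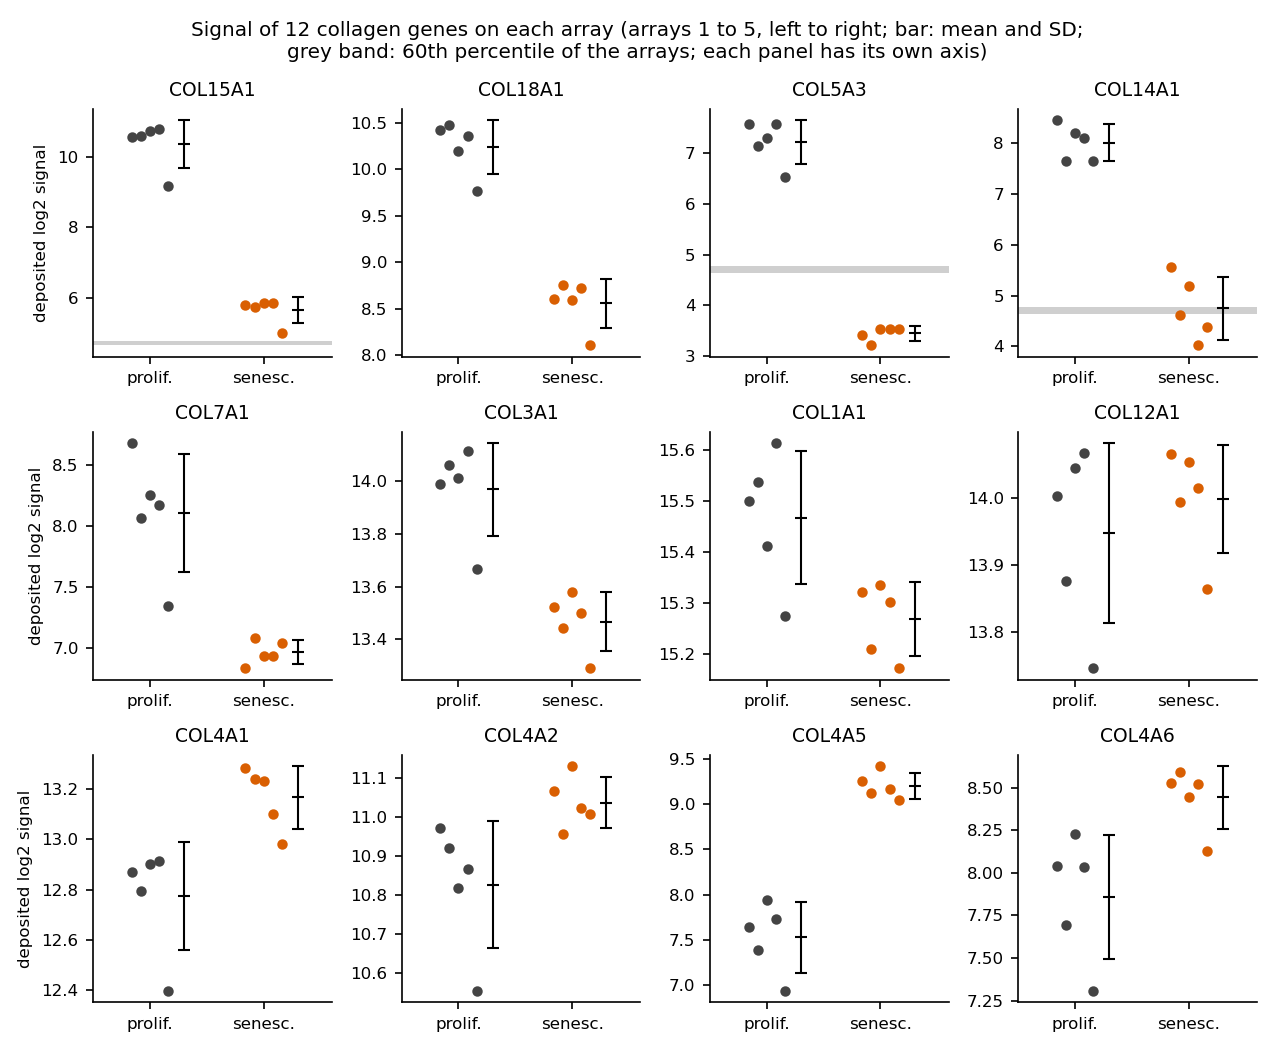
Log2 signal of 12 collagens on proliferating arrays 1 to 5 and senescent arrays 1 to 5, each panel on its own axis, with mean and SD beside the points and a grey band at the arrays' 60th percentile where it falls in the panel. COL15A1, COL18A1, COL5A3, COL14A1, COL7A1 and COL3A1 lie lower on all senescent arrays, COL4A1 and COL4A5 higher on all, and COL12A1, COL1A1, COL4A2 and COL4A6 overlap.

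Fibrillar collagens carry most of the collagen mass of connective tissue. Read from the probe set that stands for each gene, those with clear signal showed small and mixed changes with a single large exception. Of 8 with clear signal, 4 fell, 2 rose and 2 were not called. The exception was COL5A3, which encodes a minor chain of type V collagen, the type that nucleates type I fibrils. Its values were 7.58, 7.15, 7.30, 7.57 and 6.53 in proliferating and 3.42, 3.21, 3.53, 3.53 and 3.54 in senescent cells. Every senescent value lay below the array's 60th percentile, so the direction is readable and the size is not exact. COL5A3 fell from 7.22 ± 0.43 to 3.45 ± 0.14 (SD, n = 5 each), a difference of -3.78 on the log2 scale (SE 0.18, limma's adjusted p = 4.2e-08), and its second probe set, also in the low range on senescent arrays, fell by 4.14. Its partner chains were COL5A1 and COL5A2. COL5A1, with 12.72, 12.95, 12.75, 12.77 and 12.21 in proliferating and 12.85, 12.77, 12.78, 12.75 and 12.80 in senescent cells, differed by 0.11 (SE 0.12, limma's adjusted p = 0.424), a sign that turned to -0.01 without proliferating 5. The other COL5A1 probe sets differed by -0.02 and by 0.36, the latter without overlap, and neither was called. COL5A2, with 13.20 to 13.37 in proliferating and 13.54 to 13.64 in senescent cells, rose by 0.25 (SE 0.04, limma's adjusted p = 6.5e-04), but not with housekeeping centring (0.15, adjusted p = 0.116). Its second probe set differed by 0.18 with overlap and was not called (limma's adjusted p = 0.103). The change of COL5A3 minus that of COL5A1 was -3.89 (SE 0.14), with the same limit on its size.

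Type I and type III collagen are the main fibril formers of fibroblasts. COL1A1 had values of 15.50, 15.54, 15.41, 15.61 and 15.27 in proliferating and 15.32, 15.21, 15.34, 15.30 and 15.17 in senescent cells, with overlap through proliferating 5. It fell by 0.20 (SE 0.07, limma's adjusted p = 0.025), to 87.1% of the proliferating level, and lost the call in 8 of 20 alternatives, among them the ACTB covariate (-0.22, adjusted p = 0.126) and the omission of proliferating 1, 2 or 4 or senescent 2 or 5 (adjusted p = 0.053 to 0.059). The 4 tested probe sets of COL1A1 differed by -0.47 to -0.05, and 2 of them fell. COL1A2 had values of 14.62, 14.60, 14.64, 14.61 and 14.47 in proliferating and 14.52, 14.52, 14.49, 14.49 and 14.32 in senescent cells. Its difference of -0.12 (SE 0.05) did not pass (limma's adjusted p = 0.075), and it passed without array 5 of each group (-0.11, adjusted p = 0.017). The changes of the 2 type I chains differed by -0.08 (SE 0.05). COL3A1 had values of 13.99, 14.06, 14.01, 14.12 and 13.67 in proliferating and 13.52, 13.44, 13.58, 13.50 and 13.29 in senescent cells, with no overlap. It fell by 0.50 (SE 0.09, limma's adjusted p = 6.1e-04) to 70.6% of the proliferating level, and all 4 of its tested probe sets fell, by 0.49 to 1.06.

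Among the rarer fibrillar chains, COL11A1, which sets fibril diameter in cartilage, had values of 8.15 to 8.48 in proliferating and 7.62 to 8.00 in senescent cells and fell by 0.47 (limma's adjusted p = 0.0012), or by 0.25 when its probe sets were averaged. COL27A1, a cartilage-associated fibrillar collagen, had 8.08 to 8.82 and 8.95 to 9.08, again without overlap, and rose by 0.52 (limma's adjusted p = 0.0039), with its second probe set at 0.56. COL24A1, another minor fibrillar chain, was low in both groups, with 3.28, 3.24, 2.57, 3.17 and 3.18 in proliferating and 4.37, 4.32, 4.40, 4.53 and 4.01 in senescent cells. It rose by 1.24 (limma's adjusted p = 3.0e-05) within that low range. COL2A1 and COL11A2, chains of cartilage fibrils, did not pass the filter.

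Of 10 fibril-associated collagens 5 were tested, and COL14A1, COL9A3 and COL16A1 fell. COL14A1 and COL9A3 had clear signal on the proliferating arrays alone. Of the 2 that were clear in both groups, COL16A1 fell and COL12A1 was not called. COL14A1, which binds the surface of type I fibrils and regulates their lateral growth, had values of 8.45, 7.65, 8.20, 8.09 and 7.64 in proliferating and 5.56, 4.62, 5.18, 4.02 and 4.37 in senescent cells. No senescent array reached the lowest proliferating value, and 3 of the 5 senescent arrays lay below the 60th percentile. Its log2 difference was -3.25, a size limited by those low values (SE 0.29, limma's adjusted p = 3.7e-06), and it fell, as did its other tested probe sets by 2.38 and 2.49. COL12A1, a close relative that also decorates type I fibrils, was not called. Its values were 13.75 to 14.07 in proliferating and 13.86 to 14.07 in senescent cells, which overlapped throughout, with a difference of 0.05 (SE 0.07, limma's adjusted p = 0.530). Of its 5 tested probe sets, 1 of low signal fell by 0.88 and the other 4 differed by at most 0.05, and with housekeeping centring the sign of its difference turned (-0.05).

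COL16A1, found near fibrils and microfibrils, had values of 7.79, 7.72, 7.51, 7.66 and 7.18 in proliferating and 6.85, 6.76, 6.99, 6.88 and 6.60 in senescent cells. The groups did not overlap, and it fell by 0.76 (SE 0.12, limma's adjusted p = 2.5e-04). COL9A3, a chain of the cartilage collagen that coats type II fibrils, had 6.62, 6.04, 6.27, 5.93 and 6.30 in proliferating and 5.10, 5.49, 4.94, 4.72 and 5.68 in senescent cells and fell by 1.05 (SE 0.19, limma's adjusted p = 8.4e-04), also without overlap. Its partner chains COL9A1 and COL9A2 were not tested. COL21A1 was low throughout, at 2.88 to 2.94 in proliferating and 2.95 to 3.73 in senescent cells. Its values did not overlap, yet its difference of 0.34 was not called (limma's adjusted p = 0.092).

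Type VI collagen forms beaded filaments around cells from chains that assemble together. Its main chains are encoded by COL6A1, COL6A2 and COL6A3. COL6A1 had values of 12.52, 12.37, 12.39, 12.32 and 11.84 in proliferating and 11.75, 11.69, 11.79, 11.78 and 11.95 in senescent cells. Only proliferating 5 and senescent 5 overlapped. It fell by 0.49 (SE 0.12, limma's adjusted p = 0.0037), and 7 of its 8 tested probe sets fell, those other than this one by 0.79 to 1.18. COL6A3, with 13.96, 13.94, 13.94, 14.05 and 13.77 against 13.52, 13.40, 13.60, 13.51 and 13.40, fell by 0.45 without overlap (SE 0.06, limma's adjusted p = 1.0e-04). COL6A2 had values of 5.36, 5.53, 5.28, 5.35 and 4.98 against 5.33, 5.31, 5.35, 5.32 and 5.31, a difference of 0.02 (SE 0.09, limma's adjusted p = 0.821) whose sign turned without proliferating 5 (-0.06) and with housekeeping centring (-0.08). The change of COL6A2 differed from that of COL6A3 by 0.47 (SE 0.07), while COL6A1 and COL6A3 changed by amounts that differed by -0.05 (SE 0.11). That small gap holds for the COL6A1 probe set that stands for the gene, whose difference was the smallest of its 8. Its other called probe sets fell by more than COL6A3 did. COL6A2 rested on 1 tested probe set near the 60th percentile, so its reading is that of a weak signal. COL6A5 and COL6A6 were low, and their differences of 0.03 and 0.02 were not called.

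The remaining structural classes fell where signal was clear. COL7A1 encodes the collagen of the anchoring fibrils that tether epithelial basement membranes to the stroma. It had values of 8.68, 8.07, 8.25, 8.17 and 7.34 in proliferating and 6.83, 7.08, 6.93, 6.93 and 7.04 in senescent cells, and the groups did not overlap. It fell 2.21-fold (log2 difference -1.14, SE 0.20, limma's adjusted p = 5.9e-04). COL8A1, a short-chain collagen of hexagonal networks made by vascular and corneal cells, had values of 12.22, 11.99, 12.12, 12.24 and 12.06 in proliferating and 11.69, 11.52, 11.64, 11.54 and 11.38 in senescent cells. It fell by 0.57 (SE 0.07, limma's adjusted p = 4.7e-05) without overlap, and a second probe set fell by 0.88. Its partner chain COL8A2 was low, and its difference of -0.01 was not called. COL10A1, the collagen of hypertrophic cartilage, had values of 2.71, 2.70, 2.72, 2.29 and 2.70 in proliferating and 4.82, 4.95, 3.27, 3.37 and 3.09 in senescent cells. Only senescent 1 and 2 passed the 60th percentile, and COL10A1 rose by 1.27 (SE 0.37, limma's adjusted p = 0.013), a call lost with the ACTB covariate (1.28, adjusted p = 0.109). Its second tested probe set, also of low signal, differed by 0.57 with overlap and was not called (limma's adjusted p = 0.133). On that probe set senescent 2 lay at 2.74 and senescent 5 at 4.42.

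The tested transmembrane collagens went the other way, with clear signal in COL13A1 alone. COL13A1, a cell-surface collagen of adhesion sites, had values of 10.33, 10.11, 10.31, 10.35 and 10.38 in proliferating and 10.91, 10.86, 11.01, 11.06 and 10.73 in senescent cells. All senescent arrays were higher, and it rose by 0.62 (SE 0.07, limma's adjusted p = 3.1e-05), as did both of its other tested probe sets. All 3 were shared probe sets, so COL13A1 could not be tested once such probe sets were dropped. COL25A1, best known from neurons, had values of 2.91, 2.93, 2.91, 2.88 and 2.84 in proliferating and 4.42, 3.93, 6.01, 3.43 and 3.97 in senescent cells. The groups did not overlap, but only senescent 3 passed the 60th percentile. It rose by 1.46 (SE 0.40, limma's adjusted p = 0.0093), with a call lost under the ACTB covariate (0.66, adjusted p = 0.354). COL28A1, which was classed apart from the transmembrane collagens, was low and its difference of 0.03 was not called.

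Of the 19 collagens low in both groups, 10 were tested, of which COL10A1, COL24A1 and COL25A1 rose, 0 fell in limma's test (0 also unadjusted and in the exact permutation test) and 7 were not called. Of all tested genes low in both groups, 13.4% rose and 10.1% fell. The 9 untested genes were COL2A1, COL9A1, COL9A2, COL11A2, COL19A1, COL20A1, COL22A1, COL23A1 and COL26A1. Their highest group mean was 2.66 and their differences lay between 0.02 and 0.04, so no change was readable at this signal.

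Several probe sets per gene gave a second reading. Of 74 tested collagen probe sets, 15 rose, 30 fell and 29 were not called, with p-values adjusted over 32732 probe sets, of which 26.9% rose and 26.2% fell. Of 21 collagens with more than 1 tested probe set, 7 had all of them called in a single direction and 0 had calls in both directions. Among these genes the gap between probe sets was widest in COL18A1. COL1A2 had a probe set that fell by 0.20 and another that differed by 0.25 without a call.

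**Figure D4:**
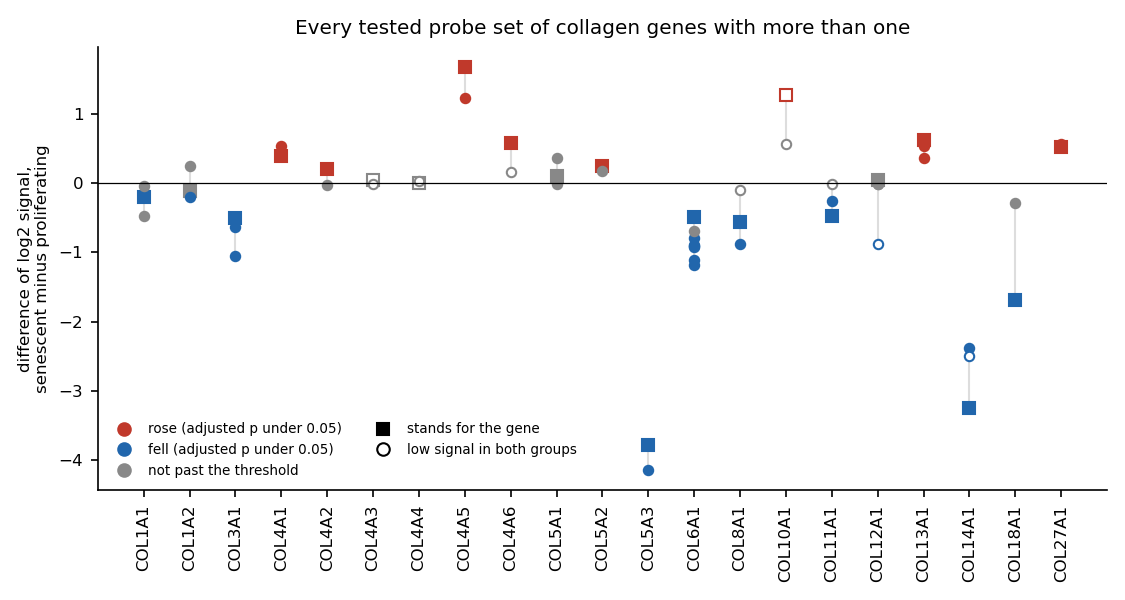
Difference of log2 signal for every tested probe set of the 21 collagens that had more than 1, with squares for the probe set that stands for the gene, red for rose, blue for fell, grey for not past the threshold and open symbols for low signal. No gene has both red and blue symbols, and the 2 probe sets of COL18A1 lie at -1.68 and -0.29.

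Genes that make, export, modify, bind and degrade collagens were read from 7 lists, which held 104 genes, 100 on the array and 88 tested. Of these, 36 rose and 22 fell, or 40.9% and 25.0%, beside 31.0% and 30.3% of all tested genes, with a median difference of 0.10. Most had clear signal, and of those 78 genes 35 rose and 18 fell. The shares over all genes with clear signal were 36.5% higher and 36.6% lower. Folding and modification in the endoplasmic reticulum was split, with 7 genes up and 5 down of 19 (median 0.02). P3H2, a prolyl 3-hydroxylase that acts on type IV collagen in particular, had 7.88 to 8.30 in proliferating and 10.14 to 10.37 in senescent cells and rose 4.58-fold (2.20 on the log2 scale, limma's adjusted p = 7.8e-09). P4HA3, a catalytic subunit of prolyl 4-hydroxylase, fell by 2.08 (1.05 when its probe sets were averaged), while the peptidyl-prolyl isomerase gene FKBP14 and the channel gene TMEM38B rose by 1.23 and 0.93. SERPINH1, the collagen chaperone HSP47, fell by 0.61, and was named after its value was seen.

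Export from the endoplasmic reticulum, which needs enlarged COPII carriers for the long procollagen rod, was the list with calls in 1 direction. Beside export genes, this list held the vesicle trafficking genes VPS33B and VIPAS39, named after their values were seen. VPS33B differed by -0.20 without a call and VIPAS39 rose by 0.33. Of 15 genes 10 rose and 0 fell in limma's test (0 also at an unadjusted p of 0.05 and in the exact permutation test), with a median of 0.34 and a lowest difference of -0.20. All 15 had clear signal, and of all genes with clear signal 36.5% were called higher and 36.6% lower. The export receptor gene MIA2 rose by 1.02, the coat genes SEC23B and SEC31A by 0.72 and 0.51, and TRAPPC2 by 0.59. MIA2 rested on a probe set shared between transcripts, and without such probe sets its difference was 0.06 (limma's adjusted p = 0.189), while SEC23B lost its call with the ACTB covariate (0.58, adjusted p = 0.131). In the list of cleavage and cross-linking, 2 of 14 rose and 5 fell (median 0.05). PCOLCE, the enhancer of procollagen C-proteinase, had 10.06 to 10.53 in proliferating and 7.27 to 7.41 in senescent cells and fell 7.67-fold (-2.94 on the log2 scale, limma's adjusted p = 7.4e-10). Its relative PCOLCE2, of low signal, and the N-proteinase gene ADAMTS2 fell by 1.98 and 1.25. The transglutaminase gene TGM2 rose by 1.19 and PXDN, whose product cross-links type IV collagen by sulfilimine bonds, by 0.16, a call lost with housekeeping centring (0.057, limma's adjusted p = 0.498) and with the ACTB covariate (adjusted p = 0.236).

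Breakdown and uptake was mixed, with 3 of 10 up and 4 down (median -0.13). The fibroblast activation protein gene FAP and the cathepsin gene CTSK fell by 1.69 and 0.55, whereas the type IV collagenase gene MMP2, the collagen uptake receptor gene MRC2 and CTSL rose by 1.27, 0.57 and 0.16. MMP2 rose by 0.67 when its probe sets were averaged. CTSK lost its call without proliferating 1, 3 or 4 or senescent 2, 4 or 5 (limma's adjusted p = 0.054 to 0.091), and CTSL with housekeeping centring (0.057, adjusted p = 0.468) and the ACTB covariate (adjusted p = 0.119). Of 8 tested collagen receptors 5 rose and 1 fell (median 0.64), beside 31.0% higher and 30.3% lower of all tested genes. Of the 7 with clear signal 5 rose and 0 fell, beside 36.5% and 36.6% of all genes with clear signal. ITGA2, the alpha chain of the integrin that binds fibrillar collagen, had 11.02 to 11.19 in proliferating and 12.58 to 12.77 in senescent cells and rose 2.94-fold (1.56, limma's adjusted p = 1.9e-09). The other collagen-binding integrin genes ITGA11 and ITGA1 rose by 1.23 and 0.96 and CD44 by 0.71, while ADGRG1, of low signal, fell by 0.56, a call lost without senescent 2, 4 or 5 (limma's adjusted p = 0.060 to 0.075). When probe sets were averaged, ITGA11 rose by 0.75 and CD44 by 1.44.

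Partners of the fibril were split, with 4 of 11 up and 3 down (median 0.10). BGN, which encodes the small proteoglycan biglycan, had 9.07 to 10.35 in proliferating and 3.58 to 4.19 in senescent cells, the latter all below the 60th percentile, and fell by 5.73 (limma's adjusted p = 1.1e-08). The thrombospondin gene THBS2 fell by 3.34 and FMOD, of low signal, by 0.75. LUM, which encodes the related proteoglycan lumican, rose from 10.10 to 10.71 on proliferating arrays to 11.81 to 12.06 on senescent ones, by 1.49. Partners of the basement membrane were also split, with 5 of 11 up and 4 down (median -0.03). The laminin alpha genes LAMA2 and LAMA1 and the nidogen gene NID1, whose product joins laminin to type IV collagen, fell by 2.21, 1.73 and 1.49, the second nidogen gene NID2, named after its value was seen, fell by 0.80, and LAMA5, of low signal, rose by 1.23 (0.83 with the ACTB covariate, limma's adjusted p = 0.053). The laminin genes LAMB1, LAMB2 and LAMC1 and the perlecan gene HSPG2, named after their values were seen, rose by 0.80, 0.60, 0.26 and 1.07.

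**Figure D5:**
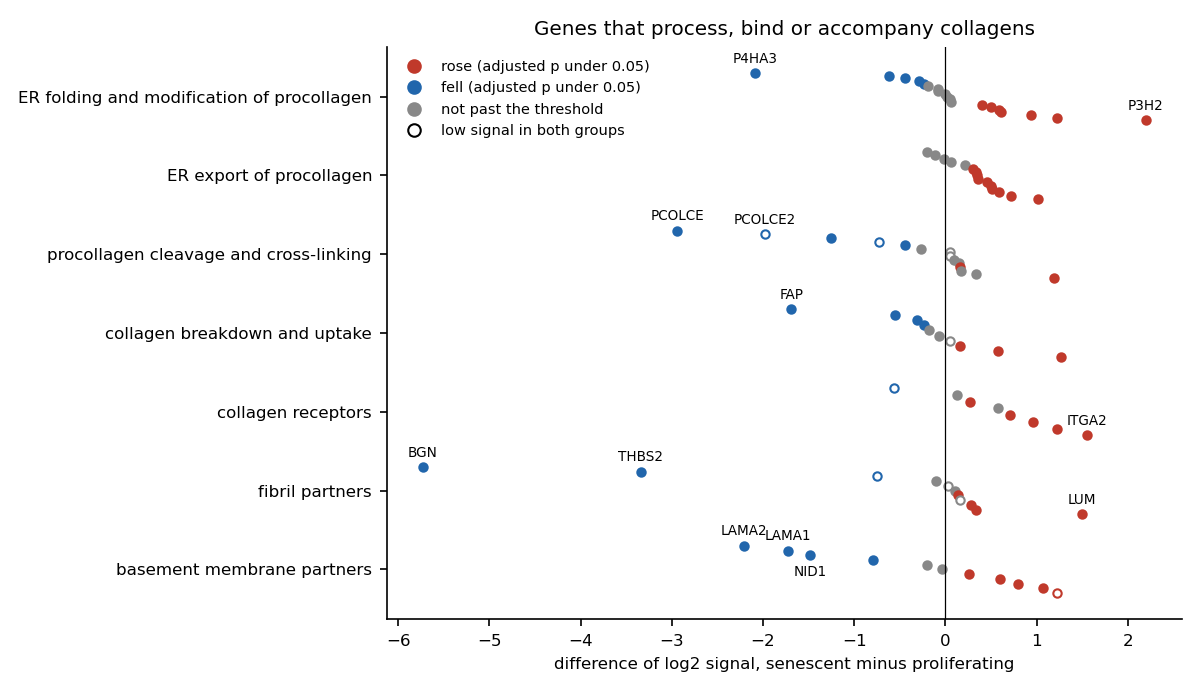
Difference of log2 signal, senescent minus proliferating, for the 88 tested genes of 7 lists of collagen-handling genes, with a row per list and the colours of rose, fell and not past the threshold. BGN lies furthest left at -5.73, P3H2 furthest right at 2.20, and the row of export genes has 10 red and 0 blue points.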

How the data were processed

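Total RNA was measured on Affymetrix HG-U133 Plus 2.0 arrays. The authors deposited 1 log2 signal for each of 54675 probe sets on each of 10 arrays. Partek and GCRMA are the tools listed in the submitters' processing notes, with no version, role or order, and their settings are not stated in those notes. That the scale is log2 was inferred from how far the values range. Array medians lay between 3.05 and 3.12, and 5 arrays per group limit the precision.

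Probe sets took their genes from the platform annotation, with symbols updated through RefSeq (GRCh38.p14). Where a gene had several tested probe sets, the one of highest mean signal stood for it. Senescent and proliferating means were compared two-sided in limma 3.58.1 (lmFit, eBayes; R 4.3.3), p-values were adjusted over 12909 genes by Benjamini and Hochberg, and the threshold was 0.05. Rose and fell mean past that threshold. For single values an exact permutation test ran over all 252 assignments of the arrays, whose smallest p is 0.00794. The fit was tested on simulated data. Members, classes and the 7 lists were chosen with earlier results of these data known. Named were every collagen and, from the lists, 31 genes: the 4 called genes that differed most in a list, or the furthest gene of a list without calls, and up to 3 genes that moved against their list. Further genes are stated as such.

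The labels do not say that replicate numbers pair arrays. Same-numbered deviations correlated by 0.01, 0.03, 0.10, 0.02 and -0.04, so no block was used. The alternatives tried were testing without the filter or above the 60th percentile, centring on housekeeping genes, quantile normalisation, the replicate number as a block, trended robust eBayes, averaging a gene's probe sets, dropping shared probe sets, the ACTB 3' minus 5' difference as a covariate, omitting proliferating 2 and senescent 5 together, and omitting each array in turn. Leaving out proliferating 5 and senescent 5 was chosen after seeing the data. Figures used Python 3.11.15 with matplotlib 3.10.9.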

Additional observations from a re-analysis of the deposited data

Results flagged for a closer look

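In 86 groups of 5 arrays, 2 for each collagen, 11 arrays of 9 genes lay further from the others of their group than Dixon's critical value of 0.71 allows, where chance flags about 1 in 20 groups. Proliferating 5 was the low array in COL1A2 (14.47, the others 14.60 to 14.64), COL3A1 (13.67, the others 13.99 to 14.12), COL4A1 (12.39, the others 12.80 to 12.91) and COL15A1 (9.17, the others 10.56 to 10.81). Senescent 5 was the low array in COL1A2 (14.32, the others 14.49 to 14.52), COL15A1 (4.99, the others 5.75 to 5.84) and COL18A1 (8.11, the others 8.60 to 8.76). COL13A1 was low on proliferating 2 (10.11, the others 10.31 to 10.38). The other 3 were in genes low in both groups, where COL8A2 was high on proliferating 3 (2.80, the others 2.65 to 2.68), COL10A1 low on proliferating 4 (2.29, the others 2.70 to 2.72) and COL24A1 low on proliferating 3 (2.57, the others 3.17 to 3.28). Whether array 5 of the 2 groups shares a handling step was not tested.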

How the results depend on the processing

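Of 34 tested collagens 10 rose and 13 fell, and with each array left out in turn 9 to 10 rose and 12 to 14 fell. Of 88 collagen-handling genes 36 rose and 22 fell, and with each array left out 35 to 39 rose and 19 to 25 fell. The ACTB covariate gave 5 collagens higher and 12 lower, and the cause was not tested. It called 49.4% of all tested genes, beside 61.3% in the main fit. Under the other alternatives 7 to 10 collagens rose and 10 to 14 fell. With the replicate block, which no label states as a pairing, 9 collagens rose and 13 fell, as COL4A2 lost its call (adjusted p = 0.052). COL4A2 lost it in 12 of 21 alternatives and COL1A1 in 8 of 20. Housekeeping centring moved the median difference of all genes from 0.04 to -0.06 and the share of calls that were higher from 50.6% to 41.5%. Signs turned only in collagens that were not called. Under housekeeping centring these were COL4A3 (-0.061), COL4A4 (-0.095), COL6A2 (-0.076), COL6A5 (-0.072), COL6A6 (-0.082), COL12A1 (-0.048) and COL28A1 (-0.074). Under quantile normalisation they were COL4A4 (-0.018), COL6A6 (-0.0093) and COL28A1 (-0.0016). Without shared probe sets COL1A2 was 0.25 and COL4A3 -0.012. COL12A1 was -0.17 when its probe sets were averaged and -0.076 with the ACTB covariate. Without proliferating 5 and senescent 5, COL4A4 was -0.019, COL5A1 -0.0091 and COL6A2 -0.053. With single arrays left out, COL4A4 ran from -0.012 to 0.044, COL5A1 from -0.0078 to 0.18, COL6A2 from -0.056 to 0.080 and COL8A2 from -0.020 to 0.019. The falls of COL15A1 (-5.03 to -4.52), COL5A3 (-4.14 to -3.69), COL14A1 (-4.03 to -2.49) and COL3A1 (-1.06 to -0.43) and the rise of COL4A5 (1.23 to 1.78) passed in all 21 alternatives run. Signals below the 60th percentile give direction at best.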
